A study of Mus musculus with 12 samples.

Results

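Mouse skin 3 days after a burn was compared with mouse skin 2 hours after a burn, on 6 of the 12 Affymetrix arrays of a burn wound series. The groups are the 3 arrays labelled 2 hours and the 3 labelled 3 days, each from total RNA of skin excised after thermal injury. Strain, sex, age, burn depth and size are not stated in the labels. Nor do the labels say whether the 3 arrays of a group came from separate mice; p-values therefore rest on the spread among these 6 arrays, which may be technical. No array taken at 0 hours entered any step, so every value is a change between the 2 times after injury and not a change from unburned skin. Of 7275 probe sets, the 6551 that name exactly 1 gene were used, and they cover 5599 genes. Values are the deposited signal, in the array's own units, listed in the order of replicates 1, 2 and 3.

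Heat unfolds proteins, and cells answer within minutes to hours by making chaperones of the heat shock family, which refold or clear them, together with metallothioneins and the transcription factors of the immediate-early class. In a skin wound, damaged cells and resident leukocytes release chemokines and cytokines that draw neutrophils from the blood within hours and monocytes after them. The monocytes become macrophages, which clear debris, while keratinocytes at the wound edge switch to an activated program marked by other keratins and cornified envelope proteins, and begin to migrate and divide.

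Signals were cut off from below at 221.9, the 25th percentile of the 6 arrays, before taking log2. In all, 909 probe sets lay at this floor on all 6 arrays, and the other 5642 probe sets (4951 genes, each read through its brightest probe set) were tested with limma, with p-values adjusted over all 5642. A gene is called higher or lower where its adjusted p is under 0.05, and the error beside a log2 change is its standard error (n = 3 arrays per time). Where an array of the lower group lies at the floor, the change is a lower bound and is written "at least". If all arrays of a group lie at the floor, their spread is set to 0. The standard error and p-value of such a gene can then be too small. The gene lists were written from general knowledge but with earlier results of these data known, so their shares are descriptions and not independent evidence. Only members with a probe set on this array can be counted.

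Of the 4951 genes, 117 (2.36%) were higher at 3 days and 52 (1.05%) were lower, together 3.41%. The 12 largest rises were led by the keratin gene Krt6b and the acute phase gene Saa3, and the 12 largest falls by Hspa1a and Hspa1b, which encode inducible heat shock proteins of the Hsp70 type. Of the 117 genes called higher, 82 changed at least 2-fold, against 22 of the 52 called lower. The median log2 change over all genes was -0.03. At an unadjusted p under 0.05, 618 genes (12.5%) were higher and 672 (13.6%) lower, and the values of the groups did not overlap for 704 higher (14.2%) and 785 lower (15.9%) genes. Counts of list members below are to be read against the shares of all genes given here. With 1 array left out, the number called moved from 117 higher and 52 lower to 76 and 16 without 2 hours replicate 1, 15 and 4 without 2 hours replicate 2, 12 and 5 without 2 hours replicate 3, 246 and 167 without 3 days replicate 1, 11 and 2 without 3 days replicate 2, and 35 and 14 without 3 days replicate 3. The genes called in all 6 of these fits, listed after their values were seen, were 12: Krt6b, Krt16, Gjb2, Klk6, Sprr2e, Sprr2g, Sprr2i, 2610528A11Rik, Slfn4 and Lst1 among those that rose, and Hspa1a and Pdk4 among those that fell. Among them, Klk6 and Slfn4 lay under the floor on all 2 hours arrays. Their 2 hours spread was thus 0 in every such fit, which makes a call easier.

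**Figure D1:**
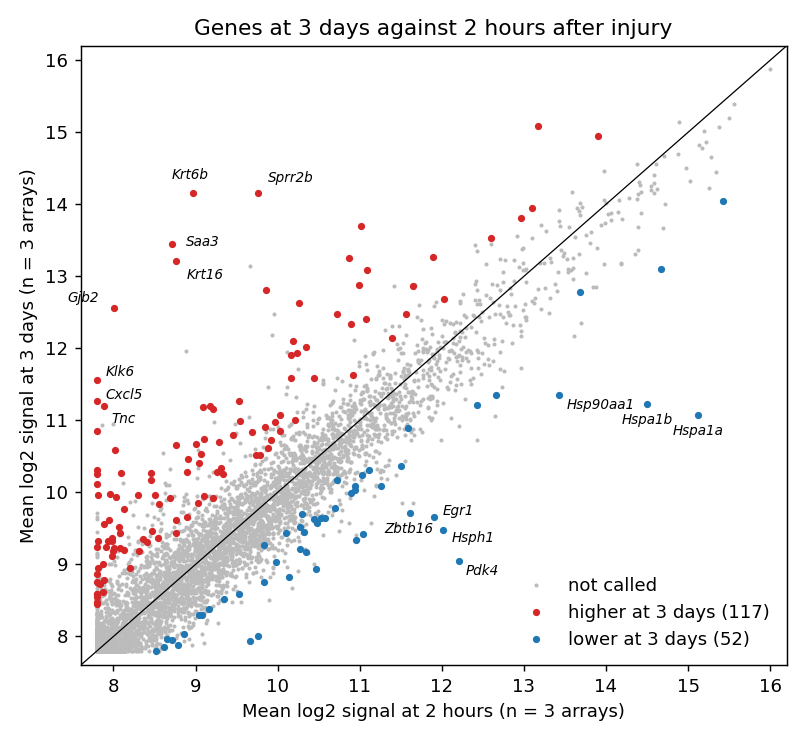
Mean log2 signal of each of the 4951 genes at 2 hours (horizontal axis) and at 3 days (vertical axis), over 3 arrays each, with the line of equal signal. The 117 genes called higher at 3 days (red) reach farther from the line than the 52 called lower (blue), except for Hspa1a, Hspa1b and Pdk4; the left edge is the floor.

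The arrays differed in other measures that touch these results. Median signals ran from 464.5 to 485.4, and 2% trimmed means deviated by at most 0.292% from their mean. The log2 ratio of the 3′ to the 5′ control probe sets of Gapdh, which is raised by degraded RNA, was 1.54 ± 0.46 (SD, n = 3) at 2 hours and 0.52 ± 0.50 (SD, n = 3) at 3 days. The nearest arrays were replicate 1 of each time, at 1.054 and 1.047. The same ratio for beta-actin overlapped between the times, with 0.17, 0.81 and 1.24 at 2 hours and 0.35, 0.17 and 0.16 at 3 days. So did the ratio of its 3′ to its middle probe set. Epidermis was present on all 6 arrays, with a mean log2 signal of 10.90 to 11.12 over 18 basal keratinocyte genes. The mean log2 signal of 49 skeletal muscle genes was 11.36, 11.30 and 11.29 at 2 hours and 11.22, 10.98 and 10.47 at 3 days, so the samples held muscle RNA, with the least in 3 days replicate 3. The Gapdh ratio and the muscle mean were each higher on every 2 hours array than on every 3 days array. With 6 arrays, either measure and time therefore cannot be told apart, and a fit with a covariate does not separate them. With the Gapdh ratio as a covariate, 3 genes were called higher and 1 lower, and with the muscle mean as a covariate, 12 and 6. These covariates also moved list medians given below: with the Gapdh ratio the chemokine median went from 0.77 to 0.11, the neutrophil median from 1.36 to 0.09, the cytokine median from 0.57 to -0.04, the adipocyte median from -0.57 to 0.04 and the macrophage median from 1.42 to 0.77. With the muscle mean these 5 medians were 0.05, 0.16, -0.04, -0.02 and 1.06. The medians of heat shock genes (-0.41 and -0.45, from -0.50) and of wound-activated keratinocyte genes (0.96 and 1.06, from 0.99) moved less, although the calls in these lists went from 5 lower to 0 and 1, and from 12 higher to 2 and 5; the macrophage calls went from 18 higher to 0 and 1. Precision is limited by having 3 arrays per time. In bulk tissue, fewer cells of a type and less RNA per cell cannot be told apart.

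Chaperone genes held the 2 largest falls. Of the 32 tested genes of the heat shock and chaperone list, 5 (15.6%) were lower at 3 days and 0 higher, against 1.05% and 2.36% of all genes, and their median log2 change was -0.50. Signals of Hspa1a at 2 hours were 34793, 48762 and 26414, and at 3 days 2293, 2235 and 1978. Every 2 hours array lay above every 3 days array, and Hspa1a fell by 4.04 ± 0.23 on the log2 scale (16.4-fold; limma adjusted p = 0.000725). Hspa1b, its neighbour on chromosome 17, had 19175, 35586 and 18225 at 2 hours and 3157, 2046 and 2149.9 at 3 days, and fell by 3.27 ± 0.30 (limma adjusted p = 0.00732). The 2 genes are near-identical copies, so each probe set may read RNA of both.

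The windows of 250 bases before the start of both genes are shown because they fell together; they come from RefSeq (GRCm38.p6), are written 5′ to 3′ on the gene's strand, and carry in capitals an 8-base match to GAANNTTC or TTCNNGAA, a pair of opposed units of the element that heat shock factors bind.
Hspa1a (chr17:34972157-34972406, minus strand): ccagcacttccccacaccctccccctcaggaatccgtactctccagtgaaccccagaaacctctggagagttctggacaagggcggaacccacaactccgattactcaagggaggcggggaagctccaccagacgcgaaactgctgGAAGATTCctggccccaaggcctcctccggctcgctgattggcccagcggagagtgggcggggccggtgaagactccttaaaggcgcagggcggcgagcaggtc
Hspa1b (chr17:34959239-34959488, minus strand): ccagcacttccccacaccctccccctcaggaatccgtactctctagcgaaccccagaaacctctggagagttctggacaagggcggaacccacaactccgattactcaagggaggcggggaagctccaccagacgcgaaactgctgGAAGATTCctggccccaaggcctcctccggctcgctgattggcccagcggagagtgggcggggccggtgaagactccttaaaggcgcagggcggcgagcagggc
The windows are identical at 247 of 250 bases (98.8%), and the match lies at the same place in both, from base -104 to base -97 before the start. Such a match was in 12.9% of the 27025 promoters with a window of this length, in 10.3% of those of the 4012 tested genes, in 8 of the 41 (19.5%) of the genes called lower and in 11 of the 91 (12.1%) of the genes called higher. Both windows also hold 1 match to TTNNGNAA (C/EBP type), searched on both strands, which is not capitalised. A match describes letters only.

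The other called chaperones had smaller changes. Hsph1, a nucleotide exchange partner of Hsp70, had 4056, 7494 and 2326 at 2 hours and 787, 723 and 643 at 3 days, and fell by 2.53 ± 0.40 (limma adjusted p = 0.0341). Hsp90aa1, the stress-inducible form of Hsp90, had 10606, 15714 and 8084 at 2 hours and 1784, 3078 and 3304 at 3 days, and fell by 2.07 ± 0.32 (limma adjusted p = 0.0341). The fifth called member, named after its values were seen, was Fkbp4, a co-chaperone of Hsp90 in steroid receptor complexes, which fell by 0.70 on the log2 scale. Dnajb1, an Hsp40 type co-chaperone, had 1880.2, 4084 and 1060 at 2 hours and 516, 671 and 798 at 3 days, a log2 change of -1.63 ± 0.47 that did not pass (limma adjusted p = 0.103). For all 3 of Hsph1, Hsp90aa1 and Dnajb1 the 2 hours arrays stood in the same order, with replicate 2 highest and replicate 3 lowest. Across the list, 29 of 32 genes had a negative change and 19 did not overlap between groups in that direction (15.9% of all genes), while the mean log2 signal was 10.94, 11.16 and 10.76 at 2 hours and 10.24, 10.09 and 10.15 at 3 days. The count of 5 called members became 2, 2 and 3 without 2 hours replicates 1, 2 and 3, and 5, 1 and 2 without 3 days replicates 1, 2 and 3.

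No gene of the unfolded protein response of the endoplasmic reticulum passed. Of its 17 tested genes, 0 were called in either direction by limma (2 were higher and 0 lower at an unadjusted p under 0.05), and their median log2 change was 0.03. Of the 19 oxidative and metal stress genes, 2 were lower and 0 higher, with a median of 0.04. These 2 were the metallothioneins, small proteins that bind zinc and copper. The count became 0 without 2 hours replicate 2 or 3 or 3 days replicate 2, 1 without 2 hours replicate 1, and 4 without 3 days replicate 1. Mt1 had 20559.8, 29515 and 29589 at 2 hours and 6849, 8387 and 11819 at 3 days, and fell by 1.57 ± 0.25 (limma adjusted p = 0.0341). Mt2 had 37421, 45004 and 50078 at 2 hours and 13303, 16595 and 22116 at 3 days, and fell by 1.37 ± 0.22 (limma adjusted p = 0.0341). In both, every 3 days array lay under every 2 hours array, and replicate 3 was the highest array of each group. Heme oxygenase 1, Hmox1, which breaks down heme, had overlapping values of 6652, 7055 and 4968 at 2 hours and 5514, 6616 and 8046 at 3 days (limma adjusted p = 0.784).

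Immediate-early genes, which encode transcription factors and signalling regulators switched on without new protein synthesis, fell in part. Of 38 tested, 5 (13.2%) were lower and 0 higher, against 1.05% and 2.36% of all genes. The median log2 change was -0.37. Egr1, a zinc finger transcription factor, had 3207, 6779 and 2598 at 2 hours and 597, 722 and 1227 at 3 days, and fell by 2.25 ± 0.42 (limma adjusted p = 0.0459). Egr1 was called in 0 of the 6 fits that left out 1 array. Its relative Egr2 fell by 0.86 ± 0.13 (limma adjusted p = 0.0325). The other 3 were Ccn2, a matrix-associated growth factor modulator also known as Ctgf, which fell by 1.63 ± 0.24, Cebpd, a C/EBP transcription factor of the acute phase, which fell by 1.31 ± 0.19, and Sgk1, a kinase induced by serum and glucocorticoid, which fell by 1.17 ± 0.12 (limma adjusted p = 0.0311, 0.0311 and 0.0154).

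Several classical members missed the threshold. Atf3, a stress-induced repressor, had 3101, 4183 and 1708 at 2 hours and 514, 828 and 994 at 3 days, without overlap, and a log2 change of -1.90 ± 0.38 (limma adjusted p = 0.0524). Fos had 4096, 4919 and 1638 at 2 hours and 446, 857 and 2085 at 3 days, and the 3 days replicate 3 value lay above the lowest 2 hours value (-1.79 ± 0.64; limma adjusted p = 0.151). Jun had 1128, 2241 and 608 at 2 hours and 338, 532 and 383 at 3 days (-1.49 ± 0.46; limma adjusted p = 0.113). For Junb, Dusp1 and Zfp36, which encode a partner of Fos, a phosphatase of MAP kinases and a protein that destabilises cytokine mRNA, the groups overlapped, with log2 changes of 0.25 ± 0.51, -0.67 ± 0.35 and -0.48 ± 0.33 (limma adjusted p = 0.805, 0.279 and 0.423). Myc, a growth regulator, lay under the floor in 2 of the 3 days arrays, and its log2 change of -0.55 ± 0.22 is a bound (limma adjusted p = 0.183). In this list 3 days replicate 3 was the highest 3 days array for 31 of 38 genes (81.6%, against 32.7% of all genes). The list mean was 10.55, 10.74 and 10.36 at 2 hours and 9.70, 10.02 and 10.51 at 3 days, so that array lay within the 2 hours range. Leaving out 2 hours replicates 1, 2 and 3 in turn gave 2, 0 and 0 called members, and leaving out 3 days replicates 1, 2 and 3 gave 4, 0 and 4.

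The median log2 change of 18 tested genes known to respond to glucocorticoids was -0.66. Of them, 6 (33.3%) were lower and 0 higher, against 1.05% and 2.36% of all genes. These were Pdk4, Zbtb16, Mt1, Mt2, Cebpd and Sgk1, of which 4 also stand in the lists above. Pdk4, the kinase that shuts off pyruvate dehydrogenase and so spares glucose, had 4064, 3862 and 6754 at 2 hours and 431, 506 and 688 at 3 days, and fell by 3.16 ± 0.27 (8.91-fold; limma adjusted p = 0.00561). Zbtb16, a transcriptional repressor also called PLZF, had 2753, 2556 and 4372 at 2 hours and 1196, 912 and 545 at 3 days, and fell by 1.90 ± 0.34 (limma adjusted p = 0.0426). Fkbp5, a co-chaperone that dampens glucocorticoid receptor signalling, had 2442, 2165 and 3345 at 2 hours and 1548, 1455 and 1065 at 3 days, without overlap, and a log2 change of -0.96 ± 0.22 that did not pass (limma adjusted p = 0.0663). Replicate 3 was the highest 2 hours array for Pdk4, Zbtb16 and Fkbp5, whereas replicate 2 was highest for Hspa1a, Hsph1 and Egr1. The count of 6 called members became 4, 1 and 1 without 2 hours replicates 1, 2 and 3, and 6, 1 and 6 without 3 days replicates 1, 2 and 3.

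**Figure D2:**
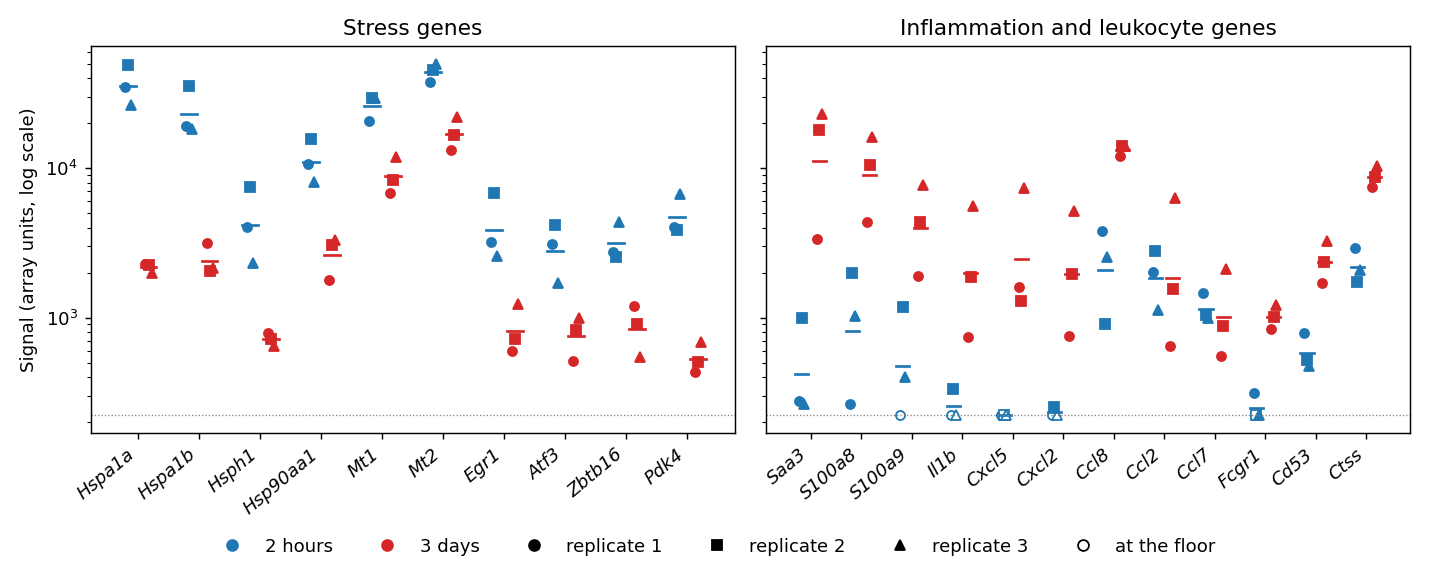
Signal of each array (log scale) for 10 stress genes and 12 inflammation and leukocyte genes at 2 hours (blue) and 3 days (red); symbols mark replicates, short lines the mean of log2 signals, and open symbols arrays at the floor (dotted line). Hspa1a falls from at least 26414 to at most 2293, whereas Ccl2 and Ccl7 overlap between the times and the 3 days arrays of Cxcl5 and Il1b spread widely.

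On the inflammatory side, acute phase and antimicrobial genes reached high signals with a wide spread between the 3 days arrays. Saa3, a serum amyloid A that is made locally in inflamed tissue, had 278, 1000.5 and 264 at 2 hours and 3353, 17915 and 23161 at 3 days. It rose by 4.74 ± 0.85 (26.7-fold; limma adjusted p = 0.0426), and by 5.60 without 3 days replicate 1, whose value was the lowest of the 3 days arrays. S100a8 and S100a9, which form the calprotectin of neutrophils and stressed keratinocytes, did not pass. S100a8 had 265, 1983 and 1019 at 2 hours and 4341, 10512 and 16266 at 3 days (3.48 ± 0.80; limma adjusted p = 0.0673). S100a9 had 88.6, 1186 and 398 at 2 hours and 1886, 4389.9 and 7747 at 3 days (at least 3.09 ± 0.73; limma adjusted p = 0.0691). Both were highest in replicate 2 among the 2 hours arrays and lowest in replicate 1 in both groups. Lcn2, an iron-sequestering lipocalin, lay under the floor on all 2 hours arrays and had 278, 616 and 1083 at 3 days (at least 1.36 ± 0.46; limma adjusted p = 0.133). Slpi, an inhibitor of neutrophil elastase, had a log2 change of 1.56 ± 0.41 in its brightest probe set (limma adjusted p = 0.0863), 2.81 in another, which was called, and -0.25 in the third, whose 3 days values all lay under the floor. Of the 15 acute phase and antimicrobial genes tested, 1 was higher, 0 were lower, and the median log2 change was 0.48. The 1 call, Saa3, held in 1 of the 6 fits that left out 1 array. The list had 1 called member without 2 hours replicate 1, 7 without 3 days replicate 1, and 0 without each other array.

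The window before the start of Saa3 is shown because Saa3 had the largest rise of an inflammatory gene and its window held 4 matches to TTNNGNAA, a pattern of C/EBP transcription factors, searched on both strands and given in capitals (RefSeq, GRCm38.p6).
Saa3 (chr7:46715677-46715926, minus strand): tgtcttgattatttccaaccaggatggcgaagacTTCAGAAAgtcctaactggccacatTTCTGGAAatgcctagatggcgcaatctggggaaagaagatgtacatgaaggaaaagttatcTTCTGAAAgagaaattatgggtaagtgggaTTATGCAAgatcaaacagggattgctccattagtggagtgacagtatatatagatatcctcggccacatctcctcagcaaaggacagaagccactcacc
The matches begin at bases -216, -191, -129 and -99 before the start, and the second is also a match to TTCNNGAA. At least 1 match to TTNNGNAA was in 36.9% of all promoters, in 29.2% of those of tested genes, in 35.2% of those of the genes called higher and in 24.4% of those of the genes called lower. In the windows of Ccl8 and Pdk4, no match to that pattern or to GAANNTTC, TTCNNGAA or TGANTCA (AP-1 type) was found.

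Chemokines did not move as one group. Of 17 tested, 3 (17.6%) were higher and 0 lower, against 2.36% and 1.05% of all genes. The median log2 change was 0.77. Ccl8, a ligand that draws monocytes, had 3810.3, 911 and 2559.6 at 2 hours and 12016, 14051 and 13959 at 3 days, and rose by 2.68 ± 0.49 (limma adjusted p = 0.0444), or by 2.09 without 2 hours replicate 2. Cxcl5, a neutrophil attractant made by epithelium, lay under the floor on all 2 hours arrays and had 1593, 1288 and 7381 at 3 days, and rose by at least 3.48 ± 0.63 (limma adjusted p = 0.0426), or by 2.69 without 3 days replicate 3. Cxcl12, a stromal chemokine that retains Cxcr4-bearing cells, rose by 1.40 ± 0.24 in its brightest probe set (limma adjusted p = 0.0397), while its other probe sets changed by 0.07 and 0.06.

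The monocyte attractants Ccl2 and Ccl7 were already present at 2 hours. Ccl2 had 2029.7, 2780.2 and 1125 at 2 hours and 641, 1544 and 6325 at 3 days, so the 3 days arrays spanned the whole 2 hours range (-0.01 ± 0.81; limma adjusted p = 0.998). Ccl7 had 1452, 1047 and 997 at 2 hours and 556, 877 and 2120.1 at 3 days (-0.18 ± 0.47; limma adjusted p = 0.849). Cxcl1, another neutrophil attractant, likewise overlapped, with 411, 1798 and 206 at 2 hours and 264, 723 and 4746 at 3 days (limma adjusted p = 0.722). In contrast, Cxcl2, which binds the same receptor, did not overlap, with 62.5, 254 and 19.1 at 2 hours and 752, 1969.5 and 5152 at 3 days, but missed the threshold (at least 3.08 ± 0.64; limma adjusted p = 0.0545). The macrophage inflammatory proteins Ccl3 and Ccl4 lay under the floor on all 2 hours arrays. At 3 days Ccl3 had 437, 875 and 1542 (limma adjusted p = 0.0627) and Ccl4 178, 1047 and 2130.3 (limma adjusted p = 0.194). Ccl9 had a log2 change of 0.93 ± 0.38 (limma adjusted p = 0.193). For Ccl2, Ccl3, Ccl4, Ccl7, Cxcl1 and Cxcl2 the 3 days arrays stood in the same order, with replicate 1 lowest and replicate 3 highest. Replicate 3 was the highest 3 days array for 13 of 17 chemokines, and the list mean was 9.21, 9.002 and 8.90 at 2 hours and 9.37, 9.93 and 10.72 at 3 days. The 3 calls became 2, 1 and 0 without 2 hours replicates 1, 2 and 3, and 7, 0 and 1 without 3 days replicates 1, 2 and 3.

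Of the 27 cytokines and cytokine receptors tested, 0 were called by limma. At an unadjusted p under 0.05, 10 of the 27 were higher and 0 lower, against 12.5% and 13.6% of all genes. The median log2 change was 0.57. Leaving out 2 hours replicates 1, 2 and 3 in turn gave 1, 0 and 0 called members, and leaving out 3 days replicates 1, 2 and 3 gave 7, 0 and 0. With either covariate the median was -0.04. Il1b, the main secreted interleukin-1, had 23.1, 334 and 127 at 2 hours and 744, 1859.6 and 5595 at 3 days, without overlap (at least 2.96 ± 0.68; limma adjusted p = 0.0673). Il6, a driver of the acute phase, was above the floor on 1 array of each group, at 225.0 in 2 hours replicate 2 and 1705 in 3 days replicate 3 (limma adjusted p = 0.491). Csf3, the granulocyte growth factor, had 424, 243 and 246 at 2 hours and 542, 856 and 1753 at 3 days (1.67 ± 0.45; limma adjusted p = 0.0902). The 27 genes of inflammatory signalling gave 0 calls by limma as well, and 3 without 3 days replicate 1. Their median was 0.28. At an unadjusted p under 0.05, 5 of these 27 were higher and 0 lower, against 12.5% and 13.6% of all genes. In this list, Cd14, the co-receptor for endotoxin, had 991, 1478 and 941 at 2 hours and 2036, 3704 and 8251 at 3 days (1.83 ± 0.49; limma adjusted p = 0.0903). Ptgs2, the inducible cyclooxygenase, exceeded the floor only in 3 days replicate 3, at 649 (limma adjusted p = 0.496), and Nos2, the inducible nitric oxide synthase, lay under the floor on all 6 arrays. In 3 days replicate 3 the value was the highest of its group for 21 of 27 cytokine genes and for 23 of 27 signalling genes, against 32.7% of all genes. That array also had the lowest Gapdh ratio (0.05) and muscle mean (10.47), and with these as covariates the medians of the signalling list were -0.09 and -0.02.

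The list of monocyte and macrophage markers gave more calls than any other list of leukocyte or inflammation genes. It includes general leukocyte genes such as Cd53 and Lst1, and only 9 neutrophil markers could be tested, so the calls are not particular to macrophages. Of 40 tested monocyte and macrophage markers, 18 (45%) were higher at 3 days and 0 lower, against 2.36% and 1.05% of all genes. Their median log2 change was 1.42. In 37 of 40 the groups did not overlap, with 3 days higher (14.2% of all genes). Cd53, a leukocyte tetraspanin, had 792, 516 and 473 at 2 hours and 1698, 2339.9 and 3253 at 3 days, and rose by 2.02 ± 0.29 (limma adjusted p = 0.0311). Ctss, the lysosomal protease cathepsin S, had 2898, 1729.5 and 2083 at 2 hours and 7466, 8748 and 10253 at 3 days, and rose by 2.00 ± 0.22 (limma adjusted p = 0.0167). Fcgr1, the high-affinity IgG receptor, had 315, 159 and 222 at 2 hours and 842, 1004 and 1223 at 3 days, and rose by at least 2.02 ± 0.20 (limma adjusted p = 0.0119), with its other probe set called at 1.30. Lst1, a leukocyte transcript, had 475, 374 and 457 at 2 hours and 1519, 1677 and 1655 at 3 days, and rose by 1.90 ± 0.13 (limma adjusted p = 0.00212). Their 3 days arrays lay far above the 2 hours arrays and close to each other for Lst1, Fcgr1 and Ctss.

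Further markers were also called, most with smaller changes. Mpeg1, which encodes a pore-forming protein of macrophages, rose by 1.94 ± 0.24 (limma adjusted p = 0.0183). Ccr2, the Ccl2 receptor of blood monocytes, had 402, 220.3 and 225 at 2 hours and 1256, 987 and 1525 at 3 days, and rose by at least 2.19 ± 0.28 (limma adjusted p = 0.0216). Fcgr2b, the inhibitory IgG receptor, rose by 1.56 ± 0.26 (limma adjusted p = 0.0393) and Mrc1, the mannose receptor, by 1.36 ± 0.24 (limma adjusted p = 0.0426). The remaining called members, named after their values were seen, were Adgre1, Tyrobp, Cd52, Cd48, Laptm5, Ctsb and Cyba, with rises from 0.85 (Ctsb) to 1.70 (Cyba), besides C1qb, C1qc and C3ar1. Cd68, a lysosomal marker of macrophages, had 1056, 479.9 and 419 at 2 hours and 1958, 1732 and 2412 at 3 days, without overlap (1.76 ± 0.36; limma adjusted p = 0.0532). Csf1r, the receptor for macrophage growth factor, had 2638, 1373 and 2049 at 2 hours and 4330.3, 4658 and 4355 at 3 days (1.19 ± 0.24; limma adjusted p = 0.0522; 0.07 in a dim second probe set), and Lyz2, lysozyme, had 4439.7, 1927 and 2367 at 2 hours and 6608, 7816 and 8057 at 3 days (1.45 ± 0.31; limma adjusted p = 0.0573). These 3 missed the threshold, and in each 2 hours replicate 1 was the highest array of its group. Fcgr3 lay under the floor on all 6 arrays.

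The spread of this list followed single arrays. Its mean log2 signal was 9.61, 9.06 and 9.19 at 2 hours and 10.27, 10.57 and 10.95 at 3 days. For 34 of 40 markers 2 hours replicate 1 was the highest 2 hours array, and for 33 of 40 3 days replicate 3 was the highest 3 days array. The count of 18 called members became 19, 1 and 1 without 2 hours replicates 1, 2 and 3, and 25, 1 and 5 without 3 days replicates 1, 2 and 3.

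Neutrophil markers were fewer on the array. Of 9 tested, 1 (11.1%) was higher and 0 lower, against 2.36% and 1.05% of all genes. Their median log2 change was 1.36, and the list holds S100a8, S100a9 and Lcn2 from above. The median was 0.09 with the Gapdh ratio as a covariate and 0.16 with the muscle mean. Leaving out 2 hours replicates 1, 2 and 3 in turn gave 0, 0 and 0 called members, and leaving out 3 days replicates 1, 2 and 3 gave 5, 0 and 1. The called gene was Mmp9, a gelatinase of neutrophil granules that macrophages and keratinocytes also make, which had 98.9, 227 and 46.1 at 2 hours and 684, 917 and 1581 at 3 days, and rose by at least 2.16 ± 0.29 (limma adjusted p = 0.0253). Of the 2 T cell and NK cell, 4 B cell and plasma cell, and 6 mast cell markers tested, 0 were called by limma; at an unadjusted p under 0.05 the counts higher were 0, 1 and 1, and their medians were 0.15, 0.05 and 0.17. The T cell and NK cell genes Gzma, Il7r and Klrk1 lay under the floor on all 6 arrays. Of 29 genes for leukocyte adhesion and migration, 2 (6.90%) were higher and 0 lower, against 2.36% and 1.05% of all genes, and the median was 0.52. The 2 were Ccr2, and Btk, a kinase of B cells and myeloid cells, which rose by at least 0.96 ± 0.15 (limma adjusted p = 0.0343). Without 3 days replicate 1 this list had 5 calls, without 2 hours replicate 1 it had 1, and without each of the others 0.

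Complement genes were split. Of 18 tested complement and coagulation genes, 4 (22.2%) were higher and 1 (5.56%) lower, against 2.36% and 1.05% of all genes. Their median log2 change was 0.32. C1qc, a chain of the C1q recognition complex, had 3582, 1473 and 1605 at 2 hours and 6135, 8093 and 8603 at 3 days, and rose by 1.89 ± 0.35 (limma adjusted p = 0.0459). C1qb rose by 1.75 ± 0.34 in its brightest probe set (limma adjusted p = 0.0482), and its other, dimmer probe set changed by -0.02. C1qa, the third chain, had 2129.8, 546 and 837 at 2 hours and 3295, 6311 and 8864 at 3 days, without overlap, but did not pass (2.52 ± 0.57; limma adjusted p = 0.065). Cfp, properdin, which stabilises the alternative pathway, rose by 1.64 ± 0.27 (limma adjusted p = 0.0369), and C3ar1, the receptor for the C3a fragment, by at least 1.51 ± 0.23 (limma adjusted p = 0.0335). The member that fell was Cd59a, which blocks the membrane attack complex, by 1.05 ± 0.16 (limma adjusted p = 0.0325). C1qb, C1qc and C3ar1 also belong to the macrophage list. The 4 higher calls became 0 without 2 hours replicate 2 or 3 or 3 days replicate 2, and 1 without 3 days replicate 3; the lower call was lost without each array other than 3 days replicate 1.

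Genes of antigen presentation by MHC class II gave 1 call of 9, Ctss, with a median of 0.32. In all 9 the highest 2 hours array was replicate 1, and the list mean was 11.51, 10.47 and 10.98 at 2 hours against 11.36, 11.57 and 11.60 at 3 days. Of 24 interferon response genes, 0 were called by limma, and the median was -0.07. At an unadjusted p under 0.05, 3 of the 24 were higher and 0 lower, against 12.5% and 13.6% of all genes. Of 18 genes of alternative activation and repair macrophages, 2 were higher, Mrc1 and the lipid droplet protein Plin2 (1.33 ± 0.20; limma adjusted p = 0.0334), 0 were lower, and the median was 0.30. Arg1, the arginase of this state, had 1083, 979 and 1286 at 2 hours and 1563, 2767 and 5181 at 3 days, without overlap (1.35 ± 0.41; limma adjusted p = 0.111). Its 3 days values spread as those of Ccl3 and Cd14 did, with replicate 1 lowest and replicate 3 highest.

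**Figure D3:**
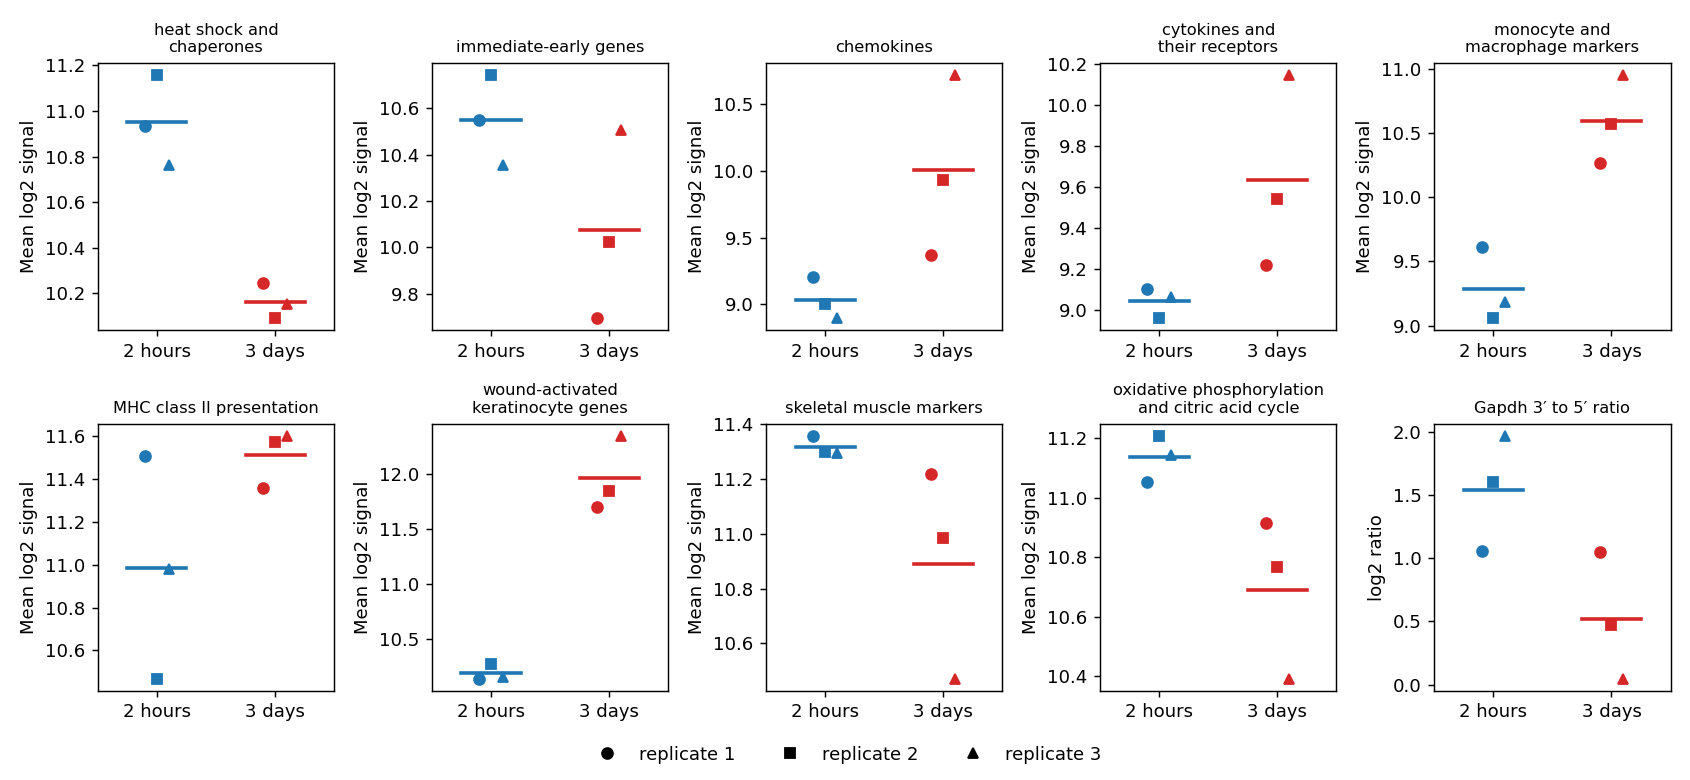
Mean log2 signal of 9 gene lists on each array, and the Gapdh 3′ to 5′ log2 ratio, at 2 hours (blue) and 3 days (red); symbols mark replicates and lines group means (n = 3). Chemokine, cytokine, macrophage and immediate-early means are highest among 3 days arrays in replicate 3, where muscle and respiratory chain means are lowest; heat shock means run from 10.76 to 11.16 at 2 hours and from 10.09 to 10.24 at 3 days.

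Epidermal genes of the wound response held the largest rise of all called genes. Of 24 tested wound-activated keratinocyte genes, 12 (50%) were higher and 0 lower, against 2.36% and 1.05% of all genes. Their median log2 change was 0.99. Krt6b, a keratin of activated and migrating keratinocytes, had 449, 593 and 474 at 2 hours and 16276, 17498 and 21146 at 3 days, and rose by 5.18 ± 0.16 (36.3-fold; limma adjusted p = 0.000101). Krt16, its type I partner, had 744, 251 and 435 at 2 hours and 8213, 9415 and 11059.7 at 3 days, and rose by 4.45 ± 0.38 (limma adjusted p = 0.00561). Gjb2, the gap junction protein connexin 26, had 204, 285 and 271 at 2 hours and 5561, 5639 and 7051 at 3 days, and rose by at least 4.55 ± 0.16 (limma adjusted p = 0.000101). In each the 3 days arrays lay close together and far above every 2 hours array.

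The related keratins changed less. Krt6a had 17239.5, 13442 and 15353 at 2 hours and 30931, 33499.8 and 30464 at 3 days, and rose by 1.05 ± 0.13 (limma adjusted p = 0.0204), with 2.27 in another probe set, also called. Krt17 rose by 0.94 ± 0.11 (limma adjusted p = 0.0167), and its other probe set by 0.71. Both were bright at 2 hours already. Krt6a and Krt6b are close paralogs, so their probe sets may share signal.

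Several genes of small proline-rich proteins, which are cross-linked into the cornified envelope, rose. Sprr2b had 2019, 647 and 505 at 2 hours and 18397, 16392 and 20135 at 3 days, and rose by 4.39 ± 0.50 (limma adjusted p = 0.0167), or by 4.996 without 2 hours replicate 1. Sprr2e had 1903, 2108 and 1621 at 2 hours and 9186, 8686 and 11613 at 3 days, and rose by 2.39 ± 0.17 (limma adjusted p = 0.00204). Among the other members, named after their values were seen, Sprr2d, Sprr2h and Sprr1b rose by 2.32, 2.46 and 1.91. The Sprr2 genes are a cluster of near-identical copies, and these probe sets may read each other's RNA. Sprr1a had 6086, 7149 and 5481 at 2 hours and 13027, 8763 and 12379.8 at 3 days, without overlap, and did not pass (0.86 ± 0.19; limma adjusted p = 0.065). Klk6, a secreted kallikrein protease, lay under the floor on all 2 hours arrays and had 3638, 2165 and 3508 at 3 days, and rose by at least 3.77 ± 0.21 (limma adjusted p = 0.000725). The connexin Gjb6, also named after its value was seen, rose by 0.68. Leaving out 2 hours replicates 1, 2 and 3 in turn gave 9, 6 and 5 called members, and leaving out 3 days replicates 1, 2 and 3 gave 15, 6 and 8.

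Genes of the resting epidermis did not shift as a group. Of 18 basal keratinocyte genes, 1 was higher and 1 lower (5.56% each, against 2.36% and 1.05% of all genes), with a median of -0.07. The first was Lama3, a chain of the laminin that anchors basal cells (1.02 ± 0.20; limma adjusted p = 0.048), and the second Trp63, the transcription factor of epidermal progenitors, which fell by 0.91 ± 0.14 (limma adjusted p = 0.0341). Of 16 differentiation genes, 1 was higher, the suprabasal keratin Krt1 (1.21 ± 0.18; limma adjusted p = 0.0332), 0 were lower, and the median was -0.09. Of 9 hair follicle genes above the floor, 0 were called by limma (1 higher and 1 lower at an unadjusted p under 0.05), and another 11 lay at the floor on all 6 arrays. Of 4 melanocyte markers, 0 were called by limma and 0 reached an unadjusted p under 0.05.

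**Figure D4:**
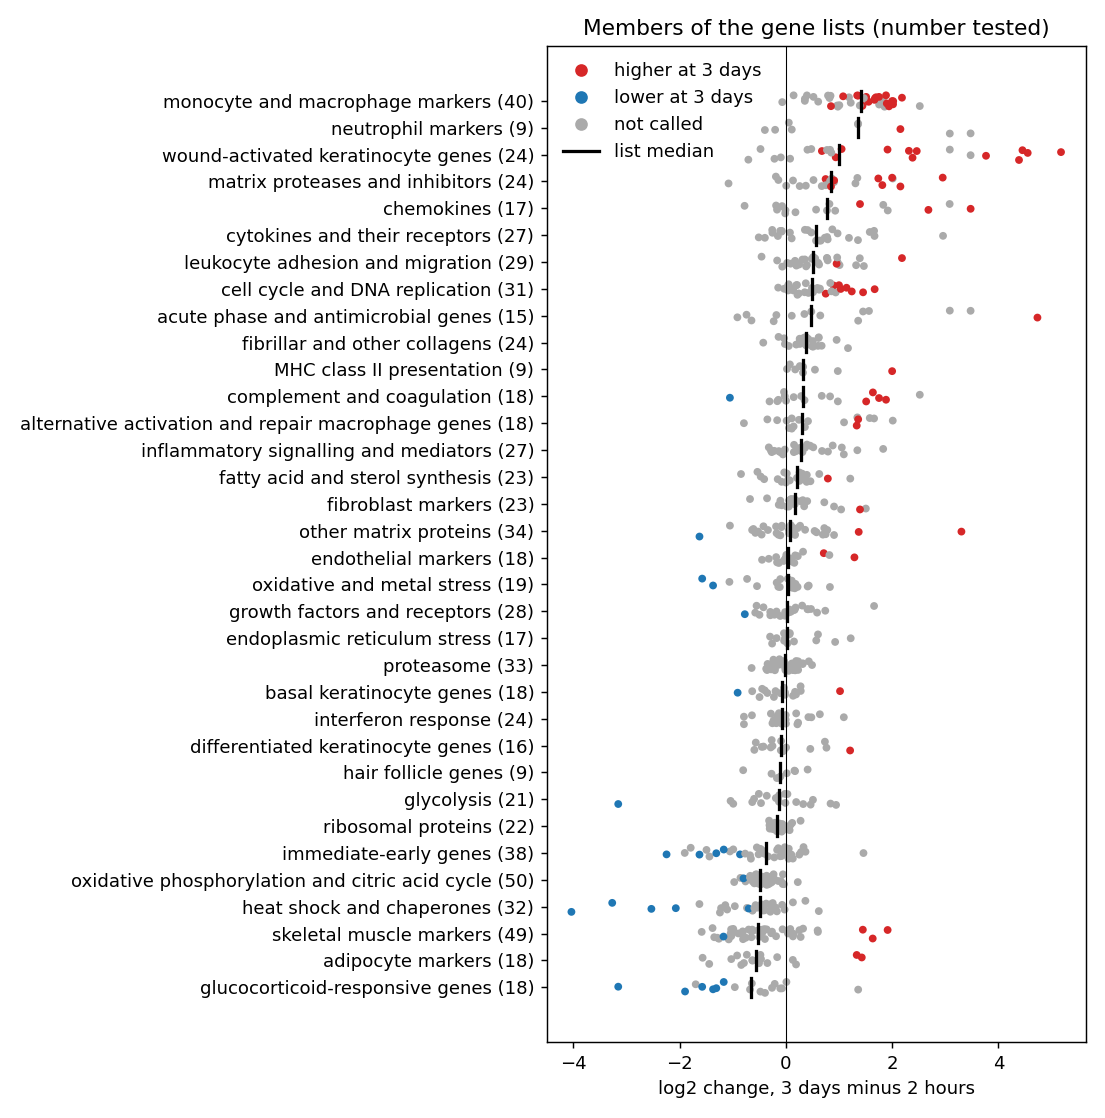
The log2 change from 2 hours to 3 days of every tested gene (points) in the lists with at least 9 tested genes, ordered by list median (black bars); red and blue points are genes called higher and lower. The medians of the macrophage, neutrophil and wound-activated keratinocyte lists lie to the right of 0, those of the basal and differentiated keratinocyte lists close to 0 (-0.07 and -0.09), and those of the heat shock, muscle, adipocyte and glucocorticoid-responsive lists to the left.

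Matrix proteases and their inhibitors gave 8 calls, and the collagens 0. Of 24 matrix proteases and inhibitors, 8 (33.3%) were higher and 0 lower, against 2.36% and 1.05% of all genes. Their median log2 change was 0.84. Timp1, an inhibitor of metalloproteinases, had 927, 1100.2 and 782 at 2 hours and 3132, 8118 and 14574 at 3 days, and rose by 2.95 ± 0.53 (limma adjusted p = 0.0426), or by 3.55 without 3 days replicate 1. Mmp3, stromelysin, had 697, 598 and 970.5 at 2 hours and 1730.4, 2375 and 3676 at 3 days, and rose by 1.74 ± 0.31 (limma adjusted p = 0.0426). Mmp13, a collagenase, lay under the floor on all 2 hours arrays, had 359.7, 324 and 444 at 3 days, and rose by at least 0.75 ± 0.14 (limma adjusted p = 0.0482). It was called in 0 of the 6 fits that left out 1 array. The cathepsins Ctsc, which activates granule proteases of leukocytes, and Ctsl rose by 1.82 ± 0.22 and 0.91 ± 0.12 (limma adjusted p = 0.0173 and 0.0241); dimmer probe sets of Ctsc changed by 1.60 and 0.12. Ctss, Ctsb and Mmp9, described above, make up the 8. The count of 8 called members became 4, 0 and 0 without 2 hours replicates 1, 2 and 3, and 9, 0 and 2 without 3 days replicates 1, 2 and 3.

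Of 34 other matrix proteins, 2 (5.88%) were higher and 1 (2.94%, Ccn2) lower, against 2.36% and 1.05% of all genes. Their median was 0.08. The count higher became 2, 0 and 0 without 2 hours replicates 1, 2 and 3, and 4, 0 and 1 without 3 days replicates 1, 2 and 3. The count lower became 0, 0 and 0, and 2, 0 and 1, in the same order. Tnc, tenascin C, a glycoprotein of provisional wound matrix, had 111, 53.2 and 271 at 2 hours and 1512, 1834 and 4641 at 3 days, and rose by at least 3.31 ± 0.41 (limma adjusted p = 0.0184); a dimmer probe set changed by 0.67. Bgn, the proteoglycan biglycan, rose by 1.37 ± 0.21 (limma adjusted p = 0.0332), with 0.25 in a second probe set. Of 24 collagens, 0 were called by limma, and the median was 0.38. At an unadjusted p under 0.05, 7 of the 24 were higher and 1 lower, against 12.5% and 13.6% of all genes. Col3a1, a collagen of early repair, had 9443, 9162 and 9739.8 at 2 hours and 9288, 14624 and 17812 at 3 days (0.51 ± 0.24; limma adjusted p = 0.247). Its dimmer probe sets changed by 1.66, without overlap (limma adjusted p = 0.0587), and by 0.07. Col1a1 overlapped in its brightest probe set (-0.03 ± 0.16; limma adjusted p = 0.93), while a second one did not, with a change of -0.50 (limma adjusted p = 0.152). Col1a2 did not overlap in its brightest probe set (0.34 ± 0.12; limma adjusted p = 0.136) and did in another, which changed by -0.17. Sparc, a collagen-binding protein, overlapped (-0.08 ± 0.16; limma adjusted p = 0.79). Without 3 days replicate 1, 3 collagens were called higher. Cpxm1, a carboxypeptidase-like secreted protein, was among the largest rises, at least 2.56 ± 0.30 (limma adjusted p = 0.0167), with 346, 229 and 168 at 2 hours and 1148, 1388 and 2275 at 3 days. Slfn4, a Schlafen gene of myeloid cells, was another, with all 2 hours arrays under the floor, 1391, 1612 and 2800.3 at 3 days and a rise of at least 3.06 ± 0.26 (limma adjusted p = 0.00561).

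Of 23 fibroblast markers, 1 (4.35%, Cxcl12) was higher and 0 were lower, against 2.36% and 1.05% of all genes, and the median was 0.17. The count higher became 2 without 3 days replicate 1 and 0 without each other array. Of 18 endothelial markers, 2 (11.1%) were higher and 0 lower, against 2.36% and 1.05% of all genes, with a median of 0.04. These were Eng, an endothelial co-receptor for TGF-beta ligands, which rose by 0.71 ± 0.12 (limma adjusted p = 0.0361), and podoplanin, Pdpn, which lymphatic endothelium shares with wound keratinocytes and fibroblasts and which rose by 1.29 ± 0.25 (limma adjusted p = 0.0478). Of 28 growth factors and receptors, 0 were higher and 1 (3.57%) was lower, against 2.36% and 1.05% of all genes. It was Kitl, the ligand of Kit on melanocytes and mast cells (-0.77 ± 0.14; limma adjusted p = 0.045). The count lower became 1 without 3 days replicate 1 and 0 without each other array. The urokinase receptor Plaur overlapped between the groups (0.83 ± 0.41; limma adjusted p = 0.26).

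Some cell division genes rose. Of 31 tested, 8 (25.8%) were higher and 0 lower, against 2.36% and 1.05% of all genes. The median log2 change was 0.49. In 21 the groups did not overlap with 3 days higher, against 14.2% of all genes. Another 11 genes of the list lay at the floor on all 6 arrays. Cdk1, the kinase that drives entry into mitosis, lay under the floor on all 2 hours arrays and had 499.9, 595 and 755 at 3 days, and rose by at least 1.45 ± 0.17 (limma adjusted p = 0.0167). Tk1, the thymidine kinase of S phase, had 107, 301 and 58.4 at 2 hours and 629.9, 869.9 and 876 at 3 days, and rose by at least 1.67 ± 0.20 (limma adjusted p = 0.0167). The replication helicase genes Mcm5 and Mcm3 rose by 1.03 ± 0.14 and 1.00 ± 0.13 (limma adjusted p = 0.0241 and 0.0219), and a dim second probe set of Mcm3 changed by 0.23. The other called members, named after their values were seen, were Ccnb2, Cdc20, Mcm7 and Rrm1, with rises from 0.75 (Mcm7) to 1.24 (Ccnb2). The list mean was nearly constant at 2 hours, at 8.49, 8.48 and 8.48, and was 8.91, 9.10 and 9.09 at 3 days, so that here 3 days replicate 3 did not stand above replicate 2. Members at the floor at 2 hours, such as Cdk1 on all 3 arrays and Tk1 on 2, hold the same value there. The floor therefore lowers the spread of the 2 hours means. Leaving out 2 hours replicates 1, 2 and 3 in turn gave 2, 1 and 0 called members, and leaving out 3 days replicates 1, 2 and 3 gave 11, 0 and 2.

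Skeletal muscle genes were mixed. Of 49 tested, 3 (6.12%) were higher and 1 (2.04%) lower, against 2.36% and 1.05% of all genes. The median log2 change was -0.53, and 25 genes did not overlap with 3 days lower (15.9% of all genes). Xirp1, an actin-binding protein of muscle, fell by 1.17 ± 0.18 (limma adjusted p = 0.0341). Ckm, muscle creatine kinase, had 6614, 6987 and 6783 at 2 hours and 5336, 3082 and 1386 at 3 days (-1.26 ± 0.45; limma adjusted p = 0.152), and Acta1, skeletal actin, had 35549, 41361 and 34289 at 2 hours and 30809.7, 31042 and 23234 at 3 days (-0.39 ± 0.16; limma adjusted p = 0.189). The 3 members that rose are genes of slow fibres or of muscle formation. Tnni1, slow troponin I, had 73.1, 241 and 332 at 2 hours and 825, 943 and 1225 at 3 days, and rose by at least 1.92 ± 0.21 (limma adjusted p = 0.0167). Tnnt1, slow troponin T, rose by at least 1.64 ± 0.29 (limma adjusted p = 0.0426), while its other probe set changed by 0.01. Myog, myogenin, which drives myoblast differentiation, had 232, 154 and 377 at 2 hours and 704, 684 and 823 at 3 days, and rose by at least 1.45 ± 0.22 (limma adjusted p = 0.0337). For 37 of 49 muscle genes 3 days replicate 3 was the lowest 3 days array (against 1871 of all 4951 genes), and the 3 higher calls became 0 without 2 hours replicate 2 or 3 days replicate 2. The 1 lower call became 6 without 3 days replicate 1 and was lost when any other single array was left out.

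Genes of respiration had mostly negative changes. Of 50 genes of the respiratory chain and citric acid cycle, 49 had a negative change and 28 did not overlap with 3 days lower (15.9% of all genes). Only 1 (2%) was called lower, against 1.05% of all genes. It was Sucla2, a subunit of succinyl-CoA ligase, which fell by 0.80 ± 0.13 (limma adjusted p = 0.0382). The list median was -0.48. The 1 call became 7 without 3 days replicate 1, and was lost when any other single array was left out. Their mean log2 signal was 11.05, 11.21 and 11.14 at 2 hours and 10.92, 10.77 and 10.39 at 3 days, with replicate 3 lowest for 47 of 50, as for the muscle mean. With the muscle mean as a covariate the median was -0.16, and with the Gapdh ratio -0.13. Ucp3, an uncoupling protein of muscle mitochondria, had 729, 782 and 931 at 2 hours and 286, 233 and 179 at 3 days, a log2 change of -1.72 ± 0.16 or beyond, called lower (limma adjusted p = 0.00723). Fabp3, the fatty acid binding protein of muscle, was called lower as well, at -1.75 ± 0.27 or beyond (limma adjusted p = 0.0335). Fgl2, a fibrinogen-like protein with prothrombinase activity, completes the 12 largest falls; it had 1975, 2487 and 1596 at 2 hours and 643, 483 and 867 at 3 days and fell by 1.62 ± 0.26 (limma adjusted p = 0.0343).

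Of 21 glycolysis genes, 1 was lower (Pdk4) and 0 were higher, with a median of -0.13. Of 18 adipocyte markers, 2 (11.1%) were higher and 0 lower, against 2.36% and 1.05% of all genes, with a median of -0.57. The 2 are Plin2 and Fabp5, the fatty acid binding protein of epidermis and macrophages, which are not restricted to fat; Fabp5 had 1286, 1025 and 1132 at 2 hours and 2914, 3012 and 3321 at 3 days, and rose by 1.43 ± 0.13 (limma adjusted p = 0.00732). Of 23 genes of fatty acid and sterol synthesis, 1 was higher, the desaturase Scd2 (0.79 ± 0.14; limma adjusted p = 0.0428), 0 were lower, and the median was 0.21. Of 22 ribosomal protein genes and 33 proteasome genes, 0 were called by limma, with 0 and 3 higher and 1 and 1 lower at an unadjusted p under 0.05, and medians of -0.16 and -0.01.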

How the data were processed

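Per the labels, total RNA from mouse skin after thermal injury was hybridised to Affymetrix arrays, 1 per sample, and groups and replicate numbers come from the sample titles. The authors deposited an intensity for every probe set and array on a linear scale; the software, scaling and probe set selection behind it are not stated in the labels. It covers 7275 probe sets: 27 controls, 6551 naming 1 gene, 251 naming several and 446 naming none in the platform annotation, which may be dated.

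No scaling was added, since the trimmed means differed by under 10%. Signals were floored at the 25th percentile of the 6 arrays (221.9), put on a log2 scale, and fitted with limma 3.58.1 in R 4.3.3 (contrast 3 days minus 2 hours, 4 residual degrees of freedom), with Benjamini-Hochberg adjustment over 5642 probe sets and calls at 0.05. A gene was read through its probe set of highest mean. The fit was tested on simulated data. Arrays of 0 hours were not used, and those of 14 days only in 1 alternative. Members and gene lists were chosen with earlier results of these data known. Named genes are the 12 largest rises and falls among called genes without overlap, up to 4 called members of each list in each direction, and a fixed set of well-known genes; others are marked as named after their values were seen. Of 1332 list entries, 910 had a probe set naming 1 gene. Tnf, Tlr2 and Spp1 had none. Promoter windows came from RefSeq by gene symbol, for 4012 of 4951 tested genes. Alternatives covered scaling, floor, filter, probe set choice, variance model, replicate block, covariates and each array left out.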

Additional observations from a re-analysis of the deposited data

How the results depend on the processing

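Against 117 genes higher and 52 lower, leaving out 1 array at a time gave 11 to 246 higher and 2 to 167 lower, each array's counts standing with the main counts above. A filter keeping probe sets above the median on at least 3 arrays gave 204 and 132, and one on the mean left 119 lower. Array weights gave 352 and 284, and the 14 days arrays in the fit 228 and 137. Requiring a log2 change of at least 1 left 22 lower. The Gapdh ratio covariate gave 3 and 1, and the muscle covariate 12 and 6. Replicate numbers did not pair the samples (same-number correlations of deviations -0.051, -0.044 and -0.004), and with the replicate block 14 were higher and 4 lower; of these 18, 17 were among the 169. The block and the covariates leave fewer degrees of freedom among 6 arrays, but the covariates also moved the estimates, as in the chemokine median (0.77; 0.11 and 0.05 with the covariates). The cause of these differences was not tested. Quantile normalization, median scaling, a floor at the 10th or 40th percentile, the most variable probe set, and trended or robust prior variance each gave counts within 1.5 times of both main counts. All 169 called genes kept their direction in every setting that tested them. They were picked for their separation on these same arrays, so a change of direction was unlikely and this is not independent evidence. For genes near the floor of 221.9, 46 of the 169, the size of the change is limited by that floor.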

Other observations

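Probe sets that name several genes or none were tested apart from the genes above. Of 221 tested probe sets that name several genes, 2 were higher and 0 lower at 3 days (limma adjusted p under 0.05), and both name the near-identical Sprr2a1, Sprr2a2 and Sprr2a3, members of the cornified envelope family. The brighter had 2989, 565 and 424 at 2 hours and 29768, 30537 and 29515 at 3 days, and rose by 5.06 ± 0.69 on the log2 scale (limma adjusted p = 0.0239). The other rose by 4.81 ± 0.53 (limma adjusted p = 0.0148). As with Sprr2b, the value of 2 hours replicate 1 was the highest of its group.

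Of 332 tested probe sets that name no gene here, 6 were higher and 2 lower. The largest change, singled out after the values were seen, was in a probe set that had 218, 464 and 519 at 2 hours and 2406, 6458 and 9798 at 3 days, and that rose by 3.83 ± 0.57 (limma adjusted p = 0.0263). Its 3 days arrays stood in the order of Saa3 and Timp1, with replicate 1 lowest and replicate 3 highest.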
